A study of Mus musculus with 7 samples.

Results

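Proteasome subunit genes were followed through a bulk RNA sequencing study of whole mouse thymus. The 44 genes of 16734 in the table whose symbol begins with Psma, Psmb, Psmc, Psmd or Psme and then a digit were taken as members. The study compared 3 groups of 4-week-old mice: wt of strain C57BL/6 (3 libraries), the Ikaros mutant ZnF1-/- (2 libraries) and the Ikaros mutant ZnF4-/- (2 libraries). Ikaros is a zinc finger DNA-binding protein of lymphocytes, and each mutant, written as homozygous, lacks the named finger, 1 or 4, of its DNA-binding domain. How the alleles were made, the background strain of the mutants and whether a library came from 1 mouse or a pool are not given in the sources used here. The cells were a filtered suspension of the whole organ, and polyA RNA was sequenced. Replicate 1 of each group was read on a GAIIx machine as 76 bp single-end reads, and replicates 2, 2A and 2B on a HiSeq machine as 50 bp reads, so each genotype is present in both sequencing batches.

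The proteasome is the barrel-shaped protease that degrades ubiquitin-tagged proteins. Its 20S core stacks rings of alpha and beta subunits, and 3 of the beta subunits, Psmb5, Psmb6 and Psmb7, carry the active sites. In cells exposed to interferon, and in lymphocytes at rest, these are replaced by the immune subunits Psmb8, Psmb9 and Psmb10, which change the peptides that are made for display on MHC class I molecules. Psmb11 is the catalytic subunit particular to cortical thymic epithelium, where it takes part in the positive selection of CD8 T cells. The 19S particle (Psmc ATPases and Psmd non-ATPases) recognises and unfolds tagged proteins, and the PA28 activator, made of Psme1 and Psme2, opens the core by another route.

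The labelled tissue was checked against marker genes. The 13 thymocyte markers, Rag1, Cd4 and Cd8a among them, summed to between 4926 and 6909 RPKM per library. RPKM, the authors' unit, is the number of reads on a gene's exons scaled to exon length and to the mapped reads of the library. Of the 13 epithelial markers, 7 stayed under 1 RPKM in every library, among them Foxn1 (at most 0.06), Krt14 (0.01), Krt5 (0.14), Aire (0.4) and Psmb11 (0.26). Others were expressed: Ctsl at 17.94 to 41.24 RPKM, Ly75 at 3.41 to 4.93, Epcam at 1.64 to 4.41, and Cldn4 at 5.1 to 34.21. Krt18 was at 0.49 to 0.79 RPKM in wt and ZnF1-/- but 7.58 and 12.35 in ZnF4-/-. Prss16 was at 1.52, 0.45 and 0.25 RPKM in wt, 0.52 and 0.2 in ZnF1-/-, and 1.05 and 0.34 in ZnF4-/-. Prss16 and Psmb11 were both higher in each 76 bp library than in every 50 bp library. The batches also differed in sex markers, since Xist gave 90.6 to 109 RPKM with 76 bp reads and 0.01 to 0.03 with 50 bp reads, while Ddx3y gave 0 to 0.01 and 13.2 to 17.4, so machine, read length and sex cannot be told apart between batches. No source used here says that the libraries of a genotype came from separate animals, and p-values then measure only the spread between these samples. Between 14290 and 15999 genes had a value above 0 per library. The read depth behind the values is unknown: no step size turned more than 30.7% of the low values of short genes into whole reads. In these bulk samples, fewer cells of a type and less RNA per cell cannot be told apart.

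Several members have near-identical copies elsewhere in the mm9 genome, which bears on which levels can be compared between genes. In 11 of the 44 members, at least 10% of the transcript, after rounding, aligned to another locus at 96% identity or more over at least 50 bases. Psmc6 was at the limit, with 217 of 2180 bases. The shared 12.6% of Psmb11 matched 1941 other loci. Psmb5, on chromosome 14 from 55232644 to 55236851 on the minus strand, matched a locus on chromosome 7 over 871 bases at 99% identity. The stretch of its coding sequence from transcript base 364 to 439, as long as a 76 bp read, is shown with the same stretch of the copy on the plus strand at mm9 chr7:3181454-3181529, with the bases that differ in capitals.
Psmb5: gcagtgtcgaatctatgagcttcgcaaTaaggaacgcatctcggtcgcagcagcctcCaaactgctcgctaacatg
Copy of Psmb5 on chromosome 7: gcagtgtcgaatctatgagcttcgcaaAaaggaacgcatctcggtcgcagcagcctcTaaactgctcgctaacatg

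These 76 bases held 2 mismatches, so a 76 bp read of this stretch differed from the other place at 2 bases and a 50 bp read within it at 1 or 2. Psme2, on chromosome 14 from 56206278 to 56209950 on the minus strand, matched the annotated pseudogene Psme2b-ps on chromosome 11 over 794 bases at 99.4% identity. The coding stretch from transcript base 520 to 595 differed at 1 base, in capitals, from the minus strand at mm9 chr11:48759224-48759299.
Psme2: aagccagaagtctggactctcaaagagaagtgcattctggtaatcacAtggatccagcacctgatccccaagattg
Psme2b-ps: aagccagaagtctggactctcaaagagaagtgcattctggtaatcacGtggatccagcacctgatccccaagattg

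How the authors counted reads that match several places is not given in the sources used here. Levels followed the copies closely among the 20S subunits other than Psma8 and Psmb11. The 5 with such a copy (Psma3, Psma4, Psma5, Psmb3 and Psmb5) had mean levels of 0.69 to 9.42 RPKM with a median of 3.27, and the 12 without had 26 to 128 RPKM with a median of 46.2. The ranges did not overlap. Among the Psmc and Psmd genes grouped as 19S the ranges overlapped. The 4 with a copy (Psmc1, Psmc6, Psmd2 and Psmd11) spanned 7.01 to 33.3 RPKM and the 16 without spanned 9.93 to 78.7 RPKM. Read length moved with the same division in wt, where 30 of the 32 tested members without a copy were higher in the 50 bp than in the 76 bp libraries (median log2 difference 0.46), and 3 of the 9 with a copy were (median -0.25). In ZnF1-/- it was 30 of 32 and 4 of 9, and in ZnF4-/- 29 of 32 and 2 of 9. The part of the copies in these levels was not tested, and the levels of the 11 genes are uncertain.

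Regulatory sequence of the catalytic genes was read from the RefSeq promoter table (GRCm38.p6), which spans 250 bases before to 50 bases after a gene's start and held 37 of the members. TGGGAA, the core of sequences bound by Ikaros, was searched on both strands and occurs in 25.6% of the 32851 promoters of the table. It was found in 11 of the 37 members (29.7%), among them Psmb8, Psmb9, Psmb10, Psme1 and Psme2. The windows of Psmb5 and Psmb6 did not hold it, and Psmb7 was not in the table. A member counted when any of its windows matched, while the 25.6% is a share of single windows, so the shares differ in unit. The 5 catalytic promoters are shown because the study alters the DNA-binding domain of Ikaros, with each TGGGAA in capitals; all 3 lie on the opposite strand and so read TTCCCA.
Psmb5: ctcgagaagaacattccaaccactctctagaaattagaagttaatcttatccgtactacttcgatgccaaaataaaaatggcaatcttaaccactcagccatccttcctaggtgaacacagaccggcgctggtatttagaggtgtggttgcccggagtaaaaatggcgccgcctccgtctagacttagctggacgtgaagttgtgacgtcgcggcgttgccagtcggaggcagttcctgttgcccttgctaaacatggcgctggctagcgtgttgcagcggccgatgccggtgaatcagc
Psmb6: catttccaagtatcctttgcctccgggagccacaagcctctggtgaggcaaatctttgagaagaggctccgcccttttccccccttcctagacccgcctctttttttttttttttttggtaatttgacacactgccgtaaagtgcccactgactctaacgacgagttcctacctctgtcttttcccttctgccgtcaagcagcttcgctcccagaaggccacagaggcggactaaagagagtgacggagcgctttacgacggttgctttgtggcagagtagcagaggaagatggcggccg
Psmb8: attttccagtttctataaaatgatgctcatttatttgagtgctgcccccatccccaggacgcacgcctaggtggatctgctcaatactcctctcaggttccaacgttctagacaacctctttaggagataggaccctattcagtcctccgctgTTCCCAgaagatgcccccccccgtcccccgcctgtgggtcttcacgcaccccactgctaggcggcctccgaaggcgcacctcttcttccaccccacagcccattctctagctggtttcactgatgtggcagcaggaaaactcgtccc
Psmb9: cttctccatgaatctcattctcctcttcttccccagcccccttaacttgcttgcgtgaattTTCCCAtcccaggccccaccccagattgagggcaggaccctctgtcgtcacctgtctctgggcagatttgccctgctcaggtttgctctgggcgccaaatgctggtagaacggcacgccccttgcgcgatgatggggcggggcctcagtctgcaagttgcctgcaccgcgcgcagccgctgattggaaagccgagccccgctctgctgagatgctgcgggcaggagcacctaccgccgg
Psmb10: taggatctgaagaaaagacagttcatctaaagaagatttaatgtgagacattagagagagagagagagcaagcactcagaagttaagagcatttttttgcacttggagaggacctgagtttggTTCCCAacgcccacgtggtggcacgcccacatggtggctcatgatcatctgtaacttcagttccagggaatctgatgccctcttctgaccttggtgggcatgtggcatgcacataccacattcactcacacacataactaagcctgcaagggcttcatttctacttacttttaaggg

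By exact match these windows lie in mm9 at chr14:55236783-55237082 (Psmb5, minus), chr11:70338609-70338908 (Psmb6, plus), chr17:34334890-34335189 (Psmb8, plus), chr17:34324226-34324525 (Psmb9, minus) and chr8:108462243-108462542 (Psmb10, minus). Relative to the gene start the match begins at position -97 in Psmb8, -189 in Psmb9 and -127 in Psmb10. Psmb9 and Tap1, a subunit of the peptide transporter, lie head to head, and the match of Psmb9 is also the match of Tap1, at position -42. GAAANNGAA, a repeat of the type bound by interferon regulatory factors, was found in 6 of the 37 (16.2%), Psme1 among them, against 8.56% of all promoters. TGANNNNGC, the core of the antioxidant response element through which Nfe2l1 drives proteasome genes, was found in 22 of the 37 (59.5%) against 41.3%. Matches of all 3 motifs were counted on both strands, and they are matches of letters, not measured sites. For each motif a member with several windows had more chances to match than a single window of the background, and the shares were not tested against each other.

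**Figure D1:**
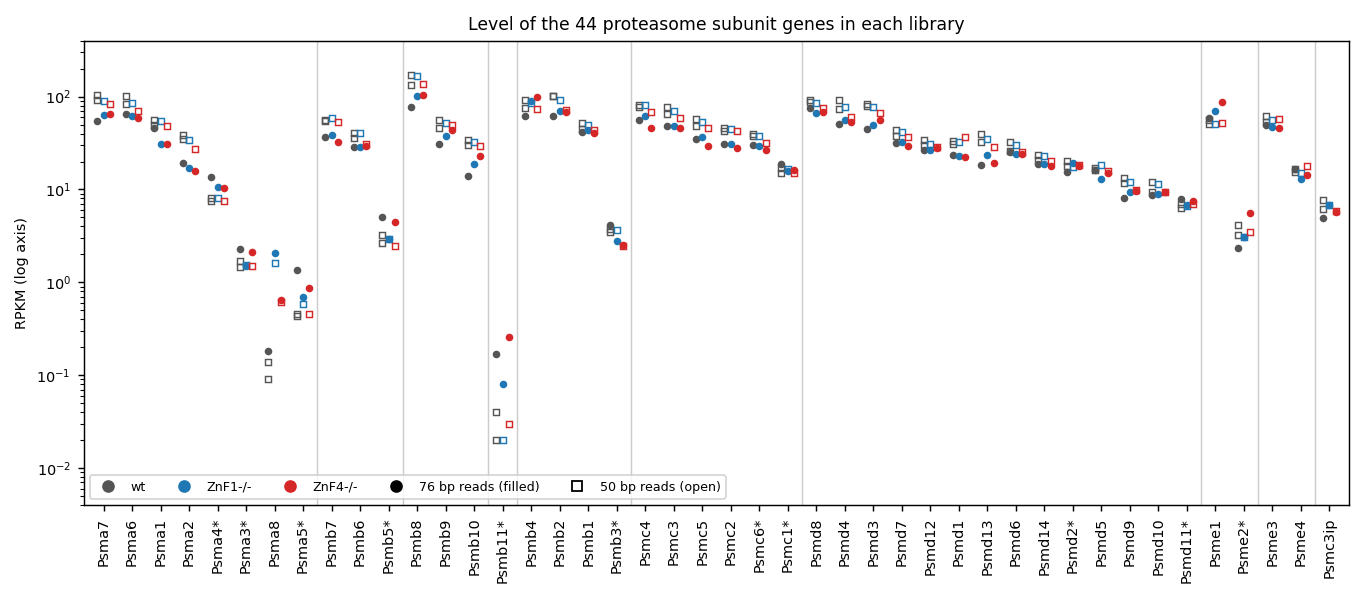
Level of each of the 44 genes (RPKM, log axis) in the 7 libraries, grouped from left as alpha ring, constitutive, immune and thymic catalytic, other beta, 19S ATPase, 19S non-ATPase, PA28, other activators and Psmc3ip. Colour gives the genotype, filled circles 76 bp and open squares 50 bp libraries. An asterisk marks at least 10% of the transcript, after rounding, shared with another locus. Psmb8 had the highest mean (128 RPKM) and Psmb11 the lowest (0.0886 RPKM).

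The immune subunit Psmb8, the chymotrypsin-like subunit of the immunoproteasome, had the highest level of all members, with a mean over the 7 libraries of 128 RPKM. It was at 77.57, 172.3 and 135.03 RPKM in wt replicates 1, 2A and 2B, at 102.81 and 168.16 in ZnF1-/- replicates 1 and 2, and at 104.95 and 137.77 in ZnF4-/- replicates 1 and 2. The wt range holds every mutant value. Psmb9 (the caspase-like site's replacement) was at 31.19, 55.75 and 45.63 RPKM in wt, 37.82 and 51.4 in ZnF1-/-, and 43.71 and 49.75 in ZnF4-/-. Psmb10, which takes the trypsin-like place of Psmb7, was at 14.11, 34.2 and 29.8 RPKM in wt, 19.01 and 32.33 in ZnF1-/-, and 22.8 and 29.56 in ZnF4-/-. All 3 immune subunits followed 1 pattern: the 76 bp wt library was the lowest of the 7, and the groups overlapped.

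The constitutive counterparts did not share 1 pattern. Psmb6 (caspase-like site) was at 28.37, 40.7 and 35.7 RPKM in wt, 28.68 and 41.05 in ZnF1-/-, and 29.17 and 30.73 in ZnF4-/-. Psmb7 (trypsin-like site) was at 36.59, 55.59 and 54.91 RPKM in wt, 38.9 and 58.35 in ZnF1-/-, and 32.36 and 53.42 in ZnF4-/-. Both were lower in each 76 bp library than in every 50 bp library, and neither separated the genotypes. Psmb5 (chymotrypsin-like site) was listed at 5.11, 3.21 and 2.62 RPKM in wt, 2.95 and 2.93 in ZnF1-/-, and 4.5 and 2.46 in ZnF4-/-, with the near-identical copy described above. Psmb11 was at 0.17, 0.04 and 0.02 RPKM in wt, 0.08 and 0.02 in ZnF1-/-, and 0.26 and 0.03 in ZnF4-/-, under the mean of 1 RPKM needed for a test.

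PA28 had the highest median log2 fold change of any class in ZnF4-/- (0.36), and without ZnF4-/- replicate 1 this median was 0.011. Psme1 (PA28 alpha) was at 59.57, 55.98 and 51.28 RPKM in wt, 69.23 and 50.1 in ZnF1-/-, and 88.5 and 52.27 in ZnF4-/-. Psme2 (PA28 beta), with its annotated pseudogene, was at 2.34, 4.11 and 3.24 RPKM in wt, 3.04 and 3.04 in ZnF1-/-, and 5.6 and 3.44 in ZnF4-/-. In both genes the 76 bp ZnF4-/- library was the highest of the 7 and the 50 bp ZnF4-/- library lay within the wt range.

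**Figure D2:**
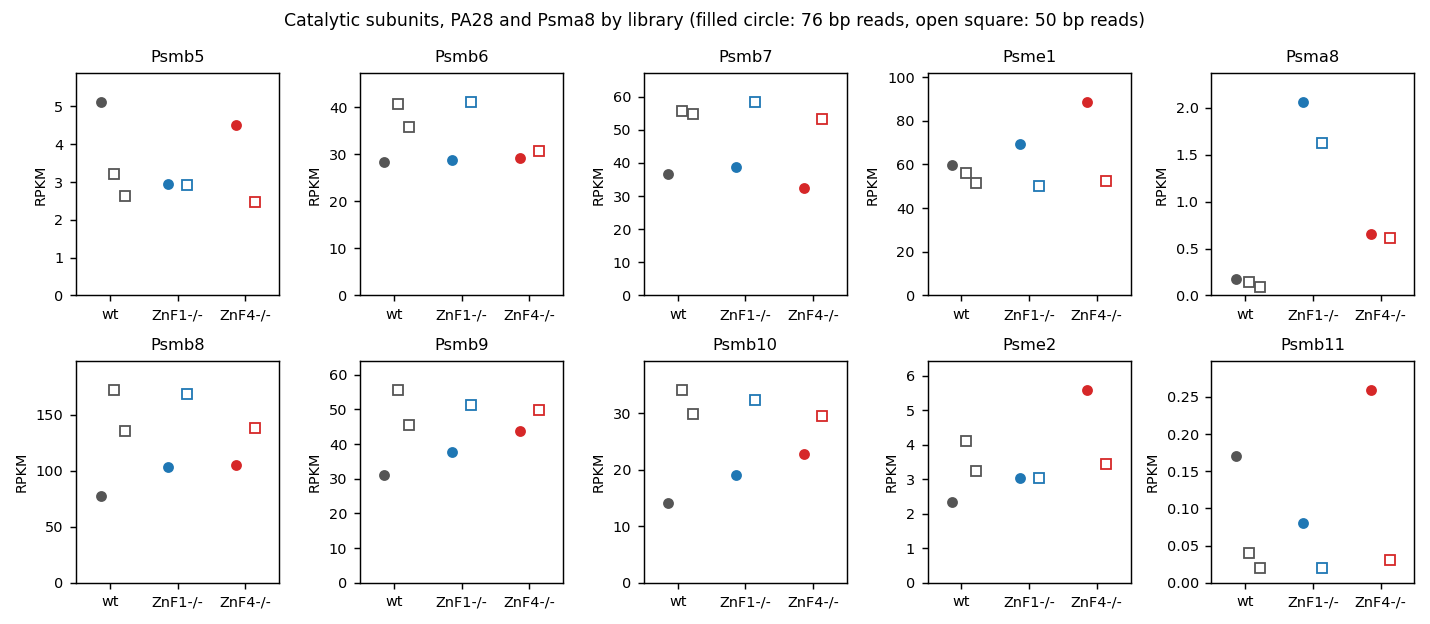
RPKM of the constitutive (Psmb5, Psmb6, Psmb7), immune (Psmb8, Psmb9, Psmb10) and thymic (Psmb11) catalytic subunits, of PA28 (Psme1, Psme2) and of Psma8 in each library of each genotype; filled circles are 76 bp and open squares 50 bp libraries, and each axis starts at 0. Psma8 is the panel in which all 3 genotypes stand apart, with wt at 0.09 to 0.18, ZnF4-/- at 0.61 to 0.65 and ZnF1-/- at 1.63 to 2.06 RPKM.

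Changes were tested with limma on log2(RPKM + 0.5) over the 10498 genes whose mean reached 1 RPKM, adjusted by Benjamini-Hochberg over those genes at a threshold of 0.05. The scale understates changes of low genes. Of the members, 41 passed the filter, and Psma5, Psma8 and Psmb11 did not. In ZnF1-/- against wt, 0 of the 41 members passed, where 0.0857% of all tested genes did (9 genes); 0 members had an unadjusted p under 0.05. In ZnF4-/- against wt, 0 of 41 passed against 2.54% of all genes (267), and 1 member, Psmb3, had an unadjusted p under 0.05. In ZnF4-/- against ZnF1-/-, 0 of 41 passed against 2.34% (246), and 0 had an unadjusted p under 0.05. Of all 10498 tested genes, 404, 1063 and 963 had an unadjusted p under 0.05 in these 3 comparisons. With the replicate number as a block in the fit, which removes the difference between the sequencing batches, the counts of members remained at 0 while 0.876%, 8.22% and 7.29% of all genes passed in the same order of comparisons. In that blocked fit 0, 4 and 1 members had an unadjusted p under 0.05, the 4 being Psma2, Psmb3, Psmc4 and Psmc6, all lower. Over all 10498 genes 917, 2149 and 2123 had one, in each comparison a larger share than that of the members. With the block and with libraries scaled to a common median, a setting added after the data were seen, 2 members passed in ZnF4-/-: Psma2 (-0.378, limma adjusted p = 0.0283) and Psmb3 (-0.548, adjusted p = 0.0497). In that fit 9.59% of all genes passed (1007), a larger share than that of the members. The 95% interval of the fold change lay within 2-fold in either direction for 40, 35 and 34 of the 41 members, so a larger change lay outside the interval of most members.

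For the immune subunits the fitted log2 fold changes in ZnF1-/- were 0.11 ± 0.37 (SE) for Psmb8, 0.04 ± 0.27 for Psmb9 and 0.03 ± 0.4 for Psmb10. In ZnF4-/- they were -0.02 ± 0.37, 0.12 ± 0.27 and 0.09 ± 0.4, with adjusted p between 0.984 and 0.999 in the limma fit. The constitutive subunits in ZnF4-/- gave -0.06 ± 0.31 for Psmb5, -0.2 ± 0.22 for Psmb6 and -0.21 ± 0.3 for Psmb7. For Psme1 and Psme2 the values were 0.29 ± 0.26 and 0.42 ± 0.26, with limma adjusted p of 0.915 and 0.779. None of these 8 fold changes exceeded 2 of its own standard errors.

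In the remaining classes most log2 fold changes in ZnF4-/- were below 0, though none passed the test. In the alpha ring, which gates the core, 6 of 6 tested members had a negative log2 fold change (median -0.23), and 0 passed. Psma7, the member of this ring with the highest level, was at 54.13, 104.71 and 92.5 RPKM in wt, 63.78 and 90.6 in ZnF1-/-, and 65.57 and 83.28 in ZnF4-/-. The lowest-level gene was Psma5, listed at 0.43 to 1.36 RPKM, and the fold change nearest to 0 was that of Psma3 (-0.01 ± 0.22), at 1.47 to 2.3 RPKM; both have near-identical copies. Psma2 had the lowest fold change of the ring and was at 19.24, 38.57 and 35.35 RPKM in wt, 16.97 and 34.09 in ZnF1-/-, and 15.8 and 27.43 in ZnF4-/-. In both batches the ZnF4-/- library was the lowest for Psma2, yet the groups overlapped because the batches differed more than the genotypes. Its log2 fold change was -0.5 ± 0.41 without the block (limma adjusted p = 0.894) and -0.35 ± 0.1 with it (adjusted p = 0.0699).

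Among the beta subunits with no active site, 3 of 4 were lower in ZnF4-/- (median -0.21). Psmb3, with copies over 97.4% of its transcript, was at 4.14, 3.78 and 3.51 RPKM in wt, 2.82 and 3.66 in ZnF1-/-, and 2.52 and 2.45 in ZnF4-/-. The ZnF4-/- libraries lay below all 3 wt libraries. Its log2 fold change was -0.53 ± 0.16, the lowest of the 41, with a limma adjusted p of 0.246, or 0.0794 with the block. Psmb4 was the highest of this class in level and in fold change (0.19 ± 0.22), at 61.27, 90.9 and 74.82 RPKM in wt, 88.92 and 86.09 in ZnF1-/-, and 99.15 and 72.89 in ZnF4-/-. Its 76 bp libraries placed both mutants above wt and its 50 bp libraries did not.

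The 6 ATPases at the base of the 19S particle unfold substrates and thread them into the core, and all 6 had negative fold changes in ZnF4-/- (median -0.28). Psmc4, the highest in level, was at 56.24, 82.13 and 78.19 RPKM in wt, 61.67 and 82.04 in ZnF1-/-, and 45.61 and 68.49 in ZnF4-/-. In each batch its ZnF4-/- library was the lowest; the log2 fold change was -0.35 ± 0.26 (limma adjusted p = 0.869), or -0.26 ± 0.09 with the block (adjusted p = 0.145). Psmc1, lowest in level, was at 14.86 to 18.96 RPKM over all libraries with a log2 fold change of -0.1 ± 0.15. Of the 14 Psmd genes, grouped by symbol as 19S non-ATPase, 12 were negative (median -0.13). Psmd8, a lid subunit with the highest level of this class, was at 75.68, 87.19 and 92.62 RPKM in wt and at 67.49 and 75.21 in ZnF4-/-, below every wt library, with a log2 fold change of -0.25 ± 0.18. Psmd4, a ubiquitin receptor, had the lowest fold change of this class, -0.3 ± 0.27, and Psmd2 (a base scaffold with a copy elsewhere) the highest, 0.03 ± 0.15. Psmd11 had the lowest level, 6.39 to 7.98 RPKM. The other activators, Psme3 (PA28 gamma, of the nucleus) and Psme4 (PA200), ranged over 46.12 to 61.73 and 12.84 to 18.11 RPKM with log2 fold changes of -0.09 ± 0.18 and -0.01 ± 0.16. Psmc3ip, whose symbol fits the rule though it encodes a protein that acts in meiotic recombination, was at 4.97 to 7.61 RPKM, with exons that overlap the opposite-strand gene Mlx over 21.2% of its length.

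**Figure D3:**
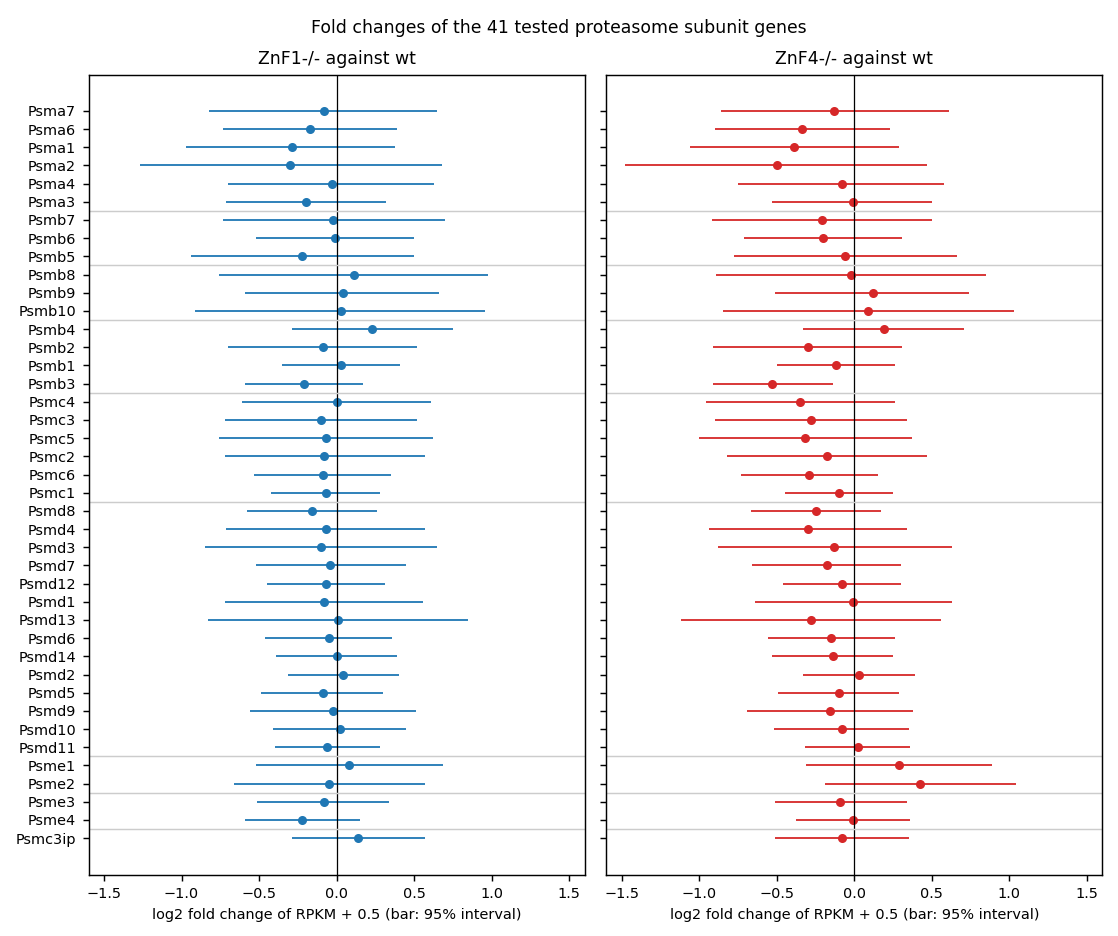
Log2 fold change of RPKM + 0.5 against wt with its 95% interval (limma) for the 41 tested members, ordered by class from the alpha ring at the top; left ZnF1-/-, right ZnF4-/-. Most points in the ZnF4-/- panel sit left of 0 (34 of 41), and 1 interval there, that of Psmb3, does not reach 0.

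Over all 41 tested members, the median log2 fold change in ZnF4-/- was -0.13, with 34 of 41 negative, beside a median of -0.05 over all tested genes, of which 41% were positive. With the block these were -0.1 and 32 of 41, beside -0.02 and 45.8% positive. In ZnF1-/- the median was -0.07 with 31 of 41 negative without the block, beside -0.02 over all genes, of which 44.9% were positive. With the block it was 0 with 19 of 41 negative, beside 0.01 and 52.9% positive. The 2 mutant comparisons share the wt libraries.

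Libraries were then compared within each replicate number, that is, within each sequencing batch. Here 0 of the 41 members were higher in ZnF4-/- than in wt in both batches, where 25.1% of all tested genes were, and 21 members (51.2%) were lower in both, where 29.2% of all genes were; wt replicates 2A and 2B were averaged. The 21 held all 6 ATPase genes, 5 of the 6 tested alpha subunits (not Psma7), the constitutive Psmb5 and Psmb7, and none of the immune or PA28 genes. With libraries scaled to a common median, 1 was higher in both (Psmb9) and 23 (56.1%) were lower, where 23.2% and 33.9% of all genes were. The median member differed by -0.08 in the 76 bp and by -0.17 in the 50 bp libraries, and the median gene by 0.05 and -0.07. In ZnF1-/-, 13 members (31.7%) were higher in both batches against 31.8% of all genes, and 8 (19.5%) were lower in both against 26.1%; the first share is near that of all genes. With the scaling these counts became 6 higher (14.6%) and 14 lower (34.1%), where 26.6% and 31.9% of all genes were, so the larger count changed direction with the scaling in ZnF1-/-. The immune subunits were higher in ZnF4-/- in the 76 bp batch, by 0.43 (Psmb8), 0.48 (Psmb9) and 0.67 (Psmb10) on the log2 scale, and differed by -0.15, -0.02 and -0.11 in the 50 bp batch. Psme1 and Psme2 gave 0.57 and 1.1 in the 76 bp batch and -0.04 and -0.08 in the 50 bp batch. All 5 genes were thus higher in ZnF4-/- in the 76 bp batch and below wt in the 50 bp batch, as were 12 of the other 36 members, Psma7, Psmb4 and Psmd3 among them. This sign change was found in 17 of the 41 members (41.5%) and in 31.9% of all tested genes, and the difference between batches was not tested.

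**Figure D4:**
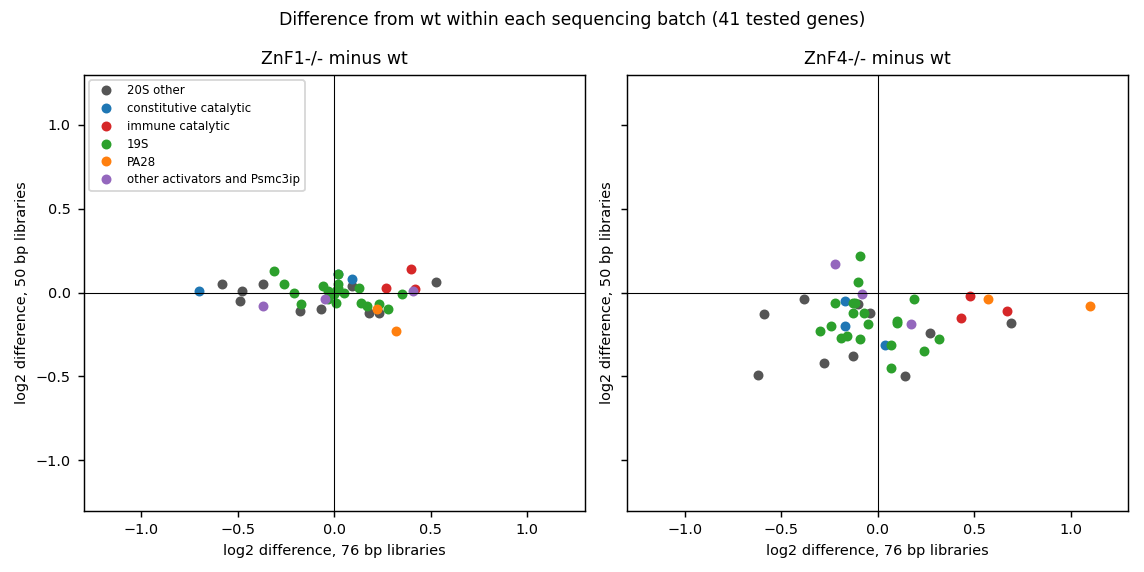
Log2 difference from wt of each of the 41 tested members in the 76 bp libraries (horizontal) and in the 50 bp libraries (vertical, wt replicates 2A and 2B averaged), for ZnF1-/- (left) and ZnF4-/- (right); colours give the class. No member lies at upper right for ZnF4-/- and 21 lie at lower left, and immune and PA28 genes lie to the right at or below 0.

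The balance of immune to constitutive subunits was measured as a ratio within each library, which does not depend on the scaling of that library. Psmb9 over Psmb6 was 1.1, 1.37 and 1.28 in wt, 1.32 and 1.25 in ZnF1-/-, and 1.5 and 1.62 in ZnF4-/-. Both ZnF4-/- libraries were above all 3 wt libraries. The mean log2 ratio differed from wt by 0.32 (SD 0.16 in wt, n = 3, and 0.08 in ZnF4-/-, n = 2; 0.45 and 0.29 within the batches), with p = 0.2 in an exact two-sided permutation test. Psmb10 over Psmb7 was 0.386, 0.615 and 0.543 in wt, 0.489 and 0.554 in ZnF1-/-, and 0.705 and 0.553 in ZnF4-/-, and its difference in ZnF4-/- of 0.31 came from the 76 bp libraries (0.87, against -0.06 in the 50 bp libraries). Psmb8 over Psmb5 was 15.2, 53.7 and 51.5 in wt, 34.9 and 57.4 in ZnF1-/-, and 23.3 and 56 in ZnF4-/-. It moved with the batch more than with the genotype, and Psmb5 carries the uncertainty of its copy. With the mean of Psmb6 and Psmb7 below the line, Psmb8 gave 2.39, 3.58 and 2.98 in wt, 3.04 and 3.38 in ZnF1-/-, and 3.41 and 3.27 in ZnF4-/-. Over the 3 subunit pairs and 2 mutants the exact permutation p lay between 0.2 and 0.9 and each was 0.9 after adjustment over the 6; with 3 against 2 libraries it cannot go below 0.1. The immune genes held 63.7%, 72.5% and 69.3% of the summed RPKM of the 6 catalytic genes in wt, 69.4% and 71.1% in ZnF1-/-, and 72.2% and 71.5% in ZnF4-/-, a range of shares in which the 76 bp wt library was the lowest.

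Genes that work with the proteasome were read from 4 lists. In both mutants against wt, 0 of 17 tested assembly and accessory factors and 0 of 13 ubiquitin supply and delivery genes passed. The block did not change this. In ZnF4-/- 0 and 0 had an unadjusted p under 0.05 without the block and 1 and 3 with it. Of all 10498 tested genes, 1063 had one without the block and 2149 with it. Pomp, the chaperone of the core, was at 38.26, 53.67 and 44.75 RPKM in wt and 37.61 and 39.03 in ZnF4-/- (log2 fold change -0.23 ± 0.24). Nfe2l1, the factor that raises proteasome genes when the proteasome is inhibited, was at 15.59, 22.07 and 22.83 RPKM in wt and 17.8 and 22.56 in ZnF4-/- (0.01 ± 0.22).

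In ZnF4-/-, H2-K1 and Nlrc5 rose. H2-K1, a class I heavy chain, was at 75.68, 96.34 and 88.61 RPKM in wt, 69.54 and 68.83 in ZnF1-/-, and 165.45 and 159.88 in ZnF4-/-. Nlrc5, the transactivator of class I genes and of Psmb9 and Tap1, was at 6.38, 6.32 and 7.24 RPKM in wt, 6.36 and 6.09 in ZnF1-/-, and 11.66 and 14.72 in ZnF4-/-. Both ZnF4-/- libraries stood above all others, with log2 fold changes of 0.91 ± 0.17 (limma adjusted p = 0.0372) and 0.93 ± 0.15 (adjusted p = 0.0244). Both calls were lost in some settings: over 20 settings H2-K1 kept a log2 fold change of 0.81 to 1.01 and passed in 11, and Nlrc5 kept 0.77 to 1.09 and passed in 14. H2-K1 did not pass without any single library except wt replicate 1 (adjusted p = 0.0823 to 0.264), and Nlrc5 did not pass without wt replicate 2A or 2B or either ZnF4-/- library (0.0723 to 0.211). These were 1 of the 11 peptide loading genes and 1 of the 14 tested genes of interferon control; their list medians were 0.39 and 0.1. With the block, 4 of 11 rose (Tap1, Tapbp, H2-K1 and H2-D1), and of the 14, Irf9 and Nlrc5 were among those that rose, and Ifngr1, a chain of the interferon gamma receptor, fell by 0.53 on the log2 scale (limma adjusted p = 0.0149). Tap1, the head-to-head neighbour of Psmb9, was at 26.57, 38.48 and 35.11 RPKM in wt, 36.31 and 39.92 in ZnF1-/-, and 40.63 and 47.66 in ZnF4-/- (blocked 0.46 ± 0.11, limma adjusted p = 0.0383). Tap1 and Psmb9 overlap over 5.8% of the exons of Psmb9, and no source used here says that counting used strand. Tap2, the other chain of the transporter, was at 36.6, 77.16 and 58.05 RPKM in wt and 52.67 and 65.31 in ZnF4-/- (0.1 ± 0.33), and Irf1, an interferon-induced activator of immune subunits, at 20.01, 30.92 and 27.09 in wt and 25.87 and 37.91 in ZnF4-/- (0.29 ± 0.28, or 0.38 ± 0.1 with a limma adjusted p of 0.0545 with the block). In ZnF1-/-, 0 of these 25 genes passed in either fit. Whether Nlrc5 or H2-K1 changed more than the immune subunits was not tested.

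**Figure D5:**
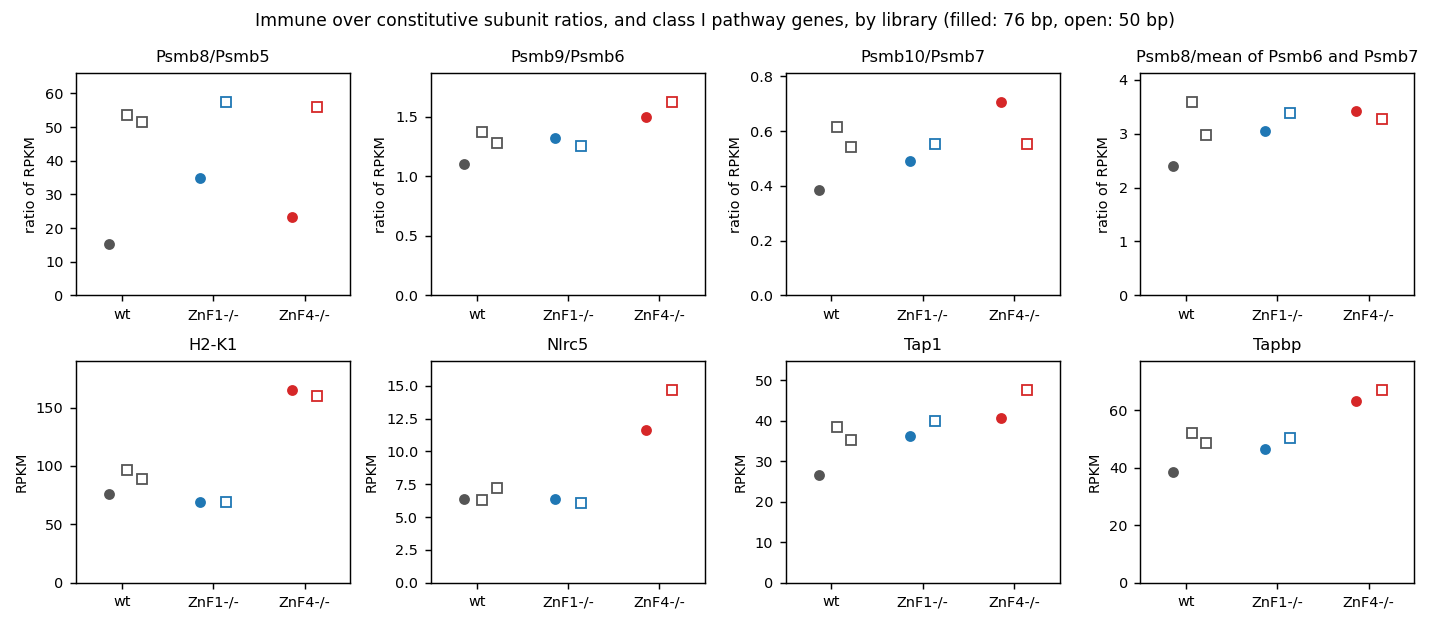
Upper row, ratios of immune to constitutive subunits (RPKM over RPKM) in each library; lower row, RPKM of H2-K1, Nlrc5, Tap1 and Tapbp; filled circles are 76 bp and open squares 50 bp libraries, and each axis starts at 0. Psmb9 over Psmb6 was 1.5 and 1.62 in ZnF4-/- against 1.1 to 1.37 in wt, while H2-K1 was near 160 RPKM in ZnF4-/- and under 100 RPKM in the other 5 libraries.

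Markers of other cell types moved in the same comparison. The 13 macrophage and dendritic cell markers summed to 159 to 196 RPKM in wt, 167 to 179 in ZnF1-/- and 262 to 266 in ZnF4-/-, and 2 of 10 tested rose with the block (C1qa and C1qc). The 4 NK and cytotoxic markers summed to 13.6 to 17.7, 11.2 to 11.5 and 31.7 to 34.3 RPKM, and Klrd1 and Nkg7 rose without the block, while Ncr1 and Klrb1c stayed under 1 RPKM. The 5 markers of mature single-positive T cells summed to 126 to 155, 150 to 168 and 158 to 207 RPKM, with S1pr1 higher and, with the block, Ccr7 and Il7r. Epithelial markers gave 34.3 to 47.3, 34.8 to 45.1 and 31.4 to 37.5 RPKM for the 7 cortical and 8.62 to 16.3, 7.26 to 13.5 and 32.1 to 36.8 RPKM for the 6 medullary, the latter through Cldn4, with Krt18 also higher. The 5 B cell markers summed to 18.7 to 23.7, 26.4 to 35.8 and 14.2 to 18.3 RPKM, the 3 erythroid to 12.1 to 31.8, 10.4 to 30.2 and 48.5 to 61.9, and the 5 fibroblast markers to 0.02 to 0.77 over all libraries, with Pdgfra at 0 in each. With the block, Hbb-b1 was also higher in ZnF4-/- and Cd79b, Ctsl and Cd8a lower, and in ZnF1-/- Cd79b was higher and Cd79a lower. The part of these cells in the class I genes, the immune subunits and PA28 was not tested.

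Psma8 was the member whose genotypes stood furthest apart, and it was named after its values were seen. It encodes the alpha subunit that takes the place of Psma7 in the testis. Its level was 0.18, 0.14 and 0.09 RPKM in wt, 2.06 and 1.63 in ZnF1-/-, and 0.65 and 0.61 in ZnF4-/-. All 3 groups were separate in both batches, and the mean RPKM was 13.5-fold higher in ZnF1-/- and 4.61-fold higher in ZnF4-/- than in wt. Its 1693-base transcript had no near-identical copy and no exon overlap with another gene in the mm9 annotation. In a limma fit with no filter on low values (16660 genes), Psma8 gave a log2 fold change of 1.88 ± 0.13 for ZnF1-/- (adjusted p = 0.023), 0.83 ± 0.13 for ZnF4-/- (adjusted p = 0.0238) and -1.05 in ZnF4-/- against ZnF1-/- (adjusted p = 0.0149). It was the 1 member to pass in each comparison of that fit, where 0.024% (4 genes), 3.73% (621) and 3.57% (594) of all genes passed. The value in RPKM is far below that of Psma7, which was at 54.13 to 104.71 RPKM. The fold changed little without any 1 library (log2 1.74 to 2.01 for ZnF1-/- and 0.78 to 0.88 for ZnF4-/-) and more with the pseudocount (1.32 to 3.05 and 0.52 to 1.64 for pseudocounts of 1 and 0.1 RPKM). The calls were lost in some settings: over 15 settings of that fit the adjusted p for ZnF1-/- ran from 0.014 to 0.333 and passed in 8, for ZnF4-/- from 0.0134 to 0.154 and passed in 7, and for the difference of the mutants from 0.00789 to 0.0741 and passed in 9, with the same direction throughout. Leaving out any single library except ZnF1-/- replicate 2 ended the ZnF1-/- call (0.107 to 0.333), leaving out any wt or ZnF4-/- library ended the ZnF4-/- call (0.0593 to 0.154), and leaving out wt 2A, wt 2B, ZnF1-/- replicate 1 or ZnF4-/- replicate 1 ended the call of the difference (0.056 to 0.0741).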

How the data were processed

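Whole-thymus polyA RNA of 7 libraries was sequenced. The authors deposited RPKM values of exonic reads per gene, made in SeqMonk with 1 transcript per gene of the mm9 annotation, per the design text; TopHat, bedtools and mm9 are named in the submitters' processing notes. The handling of reads that match several places and of strand is not given in the sources used here. The members and gene lists were chosen with earlier results of these data known. From the RPKM values, log2(RPKM + 0.5) was tested with limma 3.58.1 (R 4.3.3; eBayes with a trend), 3 groups in 1 fit, over genes with a mean of 1 RPKM or more, at an adjusted p of 0.05. Genes were named by a rule: the catalytic and PA28 genes, members that pass, and the highest and lowest level and fold change of each other class. Replicate numbers mark sequencing batches, and libraries with the same number deviated together in 8 of 8 pairs (correlations 0.489 to 0.737). The 8 pairs are not independent, because deviations were taken from each group's mean and the 2 libraries of a mutant then mirror each other. A fit with the replicate block is given where it changes a count. Ratios were tested by exact permutation (numpy 2.4.6), and copies found with blastn 2.17.0+. The limma script was tested on simulated data. Results for some genes of the lists are not reported here.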

Additional observations from a re-analysis of the deposited data

Results flagged for a closer look

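Psma8 differed between the mutants: ZnF4-/- was lower than ZnF1-/- by a log2 difference of -1.05 (limma with no filter on low values, adjusted p = 0.0149). Among the genes named by the rule, 10 had a mutant library on 1 side of wt in the 76 bp batch and on the other side of both wt libraries in the 50 bp batch; these differences between batches were not tested. In ZnF4-/- the log2 differences in the 76 bp and the 50 bp batch were 0.27 and -0.24 for Psma7, 0.69 and -0.18 for Psmb4, and 0.67 and -0.11 for Psmb10. Psmb6 gave 0.04 and -0.31, and Psmd4 gave 0.07 and -0.45. The opposite order was found for Psmd11 (-0.1 and 0.06) and Psme4 (-0.22 and 0.17). In ZnF1-/- the values were 0.23 and -0.12 for Psma7, 0.28 and -0.1 for Psmd2, 0.22 and -0.1 for Psme1, and 0.32 and -0.23 for Psme2. By the sign of the batch difference alone, whatever the spread of the wt libraries, 20 of the 41 tested members changed sign between batches in each mutant. Of all 10498 tested genes, 4391 did so in ZnF1-/- and 4774 in ZnF4-/-, so such changes were common outside the members. For the stricter rule on both wt libraries no count over all genes was made.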

How the results depend on the processing

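Of 624 values of the main results recomputed under another setting, 33 moved by more than the spread between libraries or, for counts, beyond 1.5 times. The other 591 did not. Part of the 591 could not move, since settings such as eBayes without a trend leave fold changes as they were. No member passed in the main fit, so no called direction could change, but some medians changed sign, as given below. The count of members passing was 0 in each comparison and became 1, Psma8, in each comparison with no filter on low values, both without and with the replicate block. With the replicate block and a common median it became 2 in ZnF4-/- against wt (Psma2 and Psmb3); with the replicate block alone it was 0. The block changed no other call of a member; among related genes it added the calls given with the class I and interferon lists. The alpha ring median in ZnF4-/- against wt was -0.104 with no filter and -0.337 with a mean of at least 5 RPKM. With a common median, the members in both batches became 6 higher and 14 lower in ZnF1-/-, and 1 higher in ZnF4-/-. Leaving out 1 library at a time, class medians in ZnF1-/- against wt ranged from -0.369 to 0.089 (alpha ring) and -0.264 to 0.245 (constitutive). In ZnF4-/- against wt they ranged from -0.43 to -0.162 (alpha ring), 0.011 to 0.703 (PA28) and -0.206 to 0.108 (other activators). In ZnF4-/- against ZnF1-/- they ranged from -0.346 to 0.2 (alpha ring), -0.449 to 0.095 (constitutive), -0.008 to 0.684 (PA28) and -0.056 to 0.258 (other activators). The cause of these shifts was not tested. Read depth is unknown from RPKM, 2 libraries per mutant limit each interval, and a lone library was assumed to vary like the other groups.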
